A study of Homo sapiens with 54 samples.

Results

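HepG2 is a human liver tumour line that still makes many of the secreted proteins of hepatocytes. The comparison described here sets the 2 HepG2 arrays taken 36 h after calcitriol was added against the 2 taken 8 h after it, so 4 of the 54 arrays of the series carry it. These arrays were chosen by the cell line and time given in their labels. Calcitriol is the hormonal form of vitamin D. Expression was read on Affymetrix Gene 1.0 ST arrays, with 19460 probe sets of 1 gene symbol each covering 18417 genes. The other 8 lines (fibroblast lines AG09309 and AG09319, promyelocytic HL60, erythroleukaemic K562 and lymphoblastoid GM07019, GM07348, GM10854 and GM12878) were arrayed at the same times, also 2 arrays a time, and serve as the background for the last comparison. Both HepG2 groups had received calcitriol, and HepG2 cultures kept for 8 h or 36 h without it were not analysed here, so longer exposure and longer culture cannot be told apart. HepG2 is 1 tumour line, and nothing in the labels says how the 2 cultures behind a pair of arrays were kept. The p-values therefore measure only the spread between these samples, which may be technical.

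Several programmes of hepatocytes meet in this comparison. Amino acid shortage and unfolded protein in the endoplasmic reticulum (ER) both lead to phosphorylation of the initiation factor eIF2alpha, which slows protein synthesis overall while raising translation of the transcription factor ATF4. ATF4 turns on genes for amino acid synthesis, uptake and tRNA charging, and the ER branch adds chaperones through ATF6 and XBP1. IGFBP1, a secreted protein that binds insulin-like growth factors, is made by the liver, is repressed by insulin through FOXO1 and is also raised by amino acid shortage. Cells that leave the cycle stop making the enzymes of DNA replication, the histones that package new DNA and the motors and kinases of mitosis, whose genes answer to E2F factors and to the DREAM and MuvB complexes. Calcitriol itself acts through its receptor VDR, and CYP24A1, the enzyme that starts calcitriol breakdown, is its best known target.

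The 4 arrays were well matched. All values are log2 RMA expression, with array medians of 5.23 to 5.28 in HepG2, and levels well below these medians cannot be told from background because no detection calls were used. The correlation over all probe sets was 0.988 between the 2 arrays at 36 h and 0.986 between the 2 at 8 h, against 0.976 to 0.98 for an array of one time with an array of the other. Of the 17 measured hepatocyte markers, albumin and alpha-fetoprotein among them, 17 lay above every 8 h and 36 h array of the other lines. None of the 9 B cell, 11 fibroblast and 9 myeloid and erythroid markers did (0 in each list), and 0 of these changed. The 0 h HepG2 arrays entered only the estimate of spread. They correlated at 0.954, and 1 of them lay far from its partner, as did 1 array of AG09319 at 8 h and 1 of K562 at 36 h (the 3 outlying arrays).

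Between 8 h and 36 h HepG2 raised a set of secreted liver proteins, amino acid stress genes and ER chaperones, and lowered genes of DNA replication, mitosis and histones. A difference is given as log2 of 36 h minus 8 h with its standard error (SE) after the ± sign, n = 2 arrays a time, and its adjusted p is from limma's moderated test with Benjamini-Hochberg adjustment over all 19460 probe sets. At an adjusted p under 0.05, 148 probe sets were higher at 36 h (0.761% of those tested, 135 genes) and 174 were lower (0.894%, 166 genes). The 2 shares are the background for every list count below. In 0 of the 322 called probe sets did the arrays of the 2 times overlap. Over all probe sets the median difference was -0.03, and 55% were lower and 45% higher at 36 h. The spread came from all 27 groups of line and time, and it mattered: leaving out the 3 outlying arrays gave 384 higher and 367 lower, and leaving out 1 of the 4 HepG2 arrays gave 54 to 67 higher and 46 to 110 lower. Of the 87 called genes that are named by rule, 32 kept the call whichever HepG2 array was left out.

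**Figure D1:**
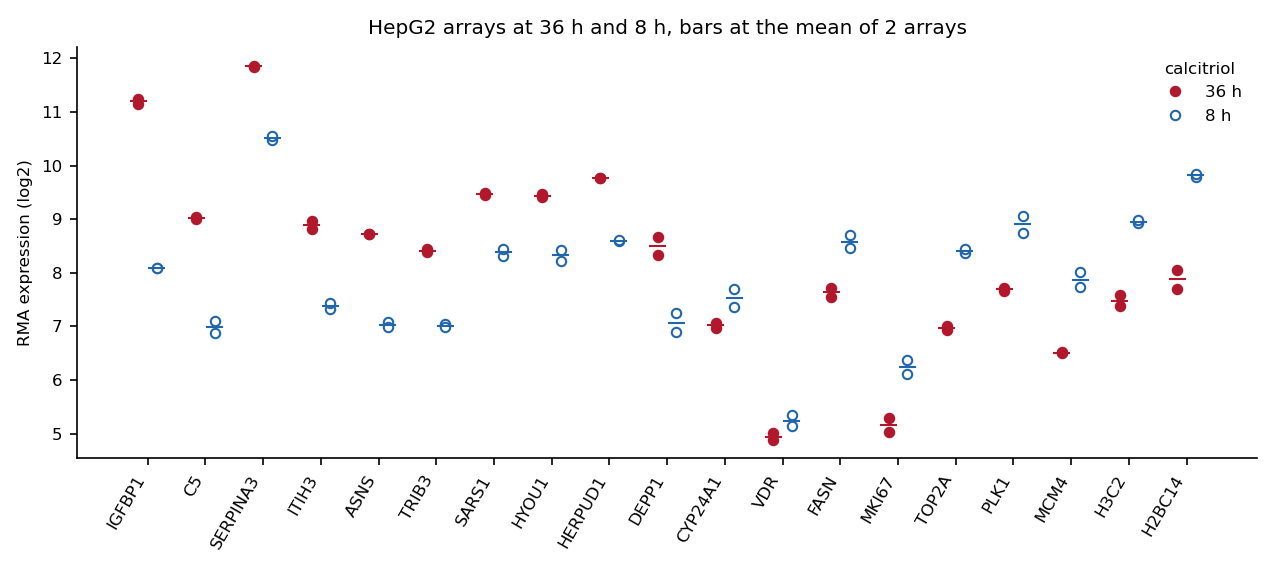
RMA expression (log2) of 19 genes in each of the 2 HepG2 arrays at 36 h (filled red) and the 2 at 8 h (open blue), with a bar at each mean. The pairs lie close together, IGFBP1 is at 11.24 and 11.15 at 36 h against 8.08 and 8.10 at 8 h, and CYP24A1 and VDR are the 2 genes shown whose difference did not pass.

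IGFBP1 had the largest rise of the whole array. It stood at 11.24 and 11.15 in the 36 h arrays, against 8.08 and 8.10 in the 8 h arrays. The 2 arrays of a time nearly coincided and the times lay far apart. The difference was 3.11 ± 0.20 (8.63-fold, adjusted p = 2.75e-13), with 3.06 to 3.16 when any 1 of these arrays was left out. Its 0 h levels, which the comparison does not use, were 9.05 and 8.70, above both 8 h arrays and below both 36 h arrays. No other member of the insulin-like growth factor system passed: of 10 measured members, which include the binding proteins, IGF1 and the receptors, IGFBP1 was the 1 that rose and 0 fell, and the list's median was 0.11. IGFBP3, the main carrier of these factors in blood, differed by 0.31 (adjusted p = 0.778), and IGFBP2 by 0.22 (adjusted p = 0.882).

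Among 18 genes that insulin represses or FOXO factors activate, 3 rose and 0 fell, with a median of -0.09. Besides IGFBP1 these were PPARGC1A, a coactivator of gluconeogenic genes, and G6PC1, the glucose-6-phosphatase that releases glucose from hepatocytes. PPARGC1A read 6.50 and 5.92 at 36 h, against 4.92 and 5.62 at 8 h (0.94 ± 0.24, adjusted p = 0.0292). G6PC1 read 5.57 and 4.99 at 36 h, against 4.43 and 4.62 at 8 h (0.76 ± 0.20, adjusted p = 0.0372). G6PC1 sat near the array median at both times and PPARGC1A at 8 h. The 2 arrays lay wide apart at both times in PPARGC1A and at 36 h in G6PC1. Neither call held in every fit without 1 HepG2 array. In those fits the difference ran from 0.59 to 1.28 for PPARGC1A and from 0.47 to 1.05 for G6PC1. PCK1, the other gluconeogenic enzyme of the list, differed by -0.09 (adjusted p = 0.985), IRS2, an insulin receptor substrate that FOXO factors raise, by -0.26 (adjusted p = 0.851), and TXNIP, a glucose-induced thioredoxin inhibitor, by -0.32 (adjusted p = 0.697).

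Amino acid genes were in 3 lists. In the ATF4 list 7 of 23 measured genes rose and 0 fell, with a median of 0.37. Synthesis and tRNA charging gave 8 of 19 up and 0 down (median 0.65), and amino acid transporters 5 of 13 up and 0 down (median 0.49). Over all probe sets 0.761% were called higher and 0.894% lower. ASNS, asparagine synthetase, led them with 8.72 in both 36 h arrays, against 7.08 and 6.99 in the 8 h arrays (1.68 ± 0.18, 3.22-fold, adjusted p = 2.09e-07). TRIB3, a pseudokinase that dampens ATF4 and insulin signalling, was at 8.44 and 8.39 at 36 h, against 7.05 and 6.99 at 8 h (1.40 ± 0.17, adjusted p = 5.22e-06). In both genes the 2 arrays of a time lay close together and the 2 times far apart.

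The window around the ASNS start is shown with those of 2 tRNA synthetase genes, since all 3 hold the ATF4 composite site, spelled TGATGNAA on either strand and known as the amino acid response element. Each window runs from 250 bases before to 50 bases after a start site in the RefSeq table of GRCh38.p14, written 5′ to 3′ along the gene, with the site in capitals. ASNS has 2 listed starts and CARS1 2, and the first that holds the site is shown. The windows are ASNS at chr7:97872359-97872658 (minus strand), CARS1 at chr11:3057374-3057673 (minus strand) and MARS1 at chr12:57487818-57488117 (plus strand).
ASNS: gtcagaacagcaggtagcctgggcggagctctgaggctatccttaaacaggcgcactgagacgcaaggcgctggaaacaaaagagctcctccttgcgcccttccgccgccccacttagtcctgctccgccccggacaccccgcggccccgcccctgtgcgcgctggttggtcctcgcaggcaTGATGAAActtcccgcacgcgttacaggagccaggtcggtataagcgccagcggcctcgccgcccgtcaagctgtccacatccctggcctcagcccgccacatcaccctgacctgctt
CARS1: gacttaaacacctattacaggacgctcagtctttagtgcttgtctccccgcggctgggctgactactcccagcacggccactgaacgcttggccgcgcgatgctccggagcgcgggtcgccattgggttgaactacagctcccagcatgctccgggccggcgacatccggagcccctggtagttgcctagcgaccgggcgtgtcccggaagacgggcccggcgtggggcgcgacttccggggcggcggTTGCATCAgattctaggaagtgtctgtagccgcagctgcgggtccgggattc
MARS1: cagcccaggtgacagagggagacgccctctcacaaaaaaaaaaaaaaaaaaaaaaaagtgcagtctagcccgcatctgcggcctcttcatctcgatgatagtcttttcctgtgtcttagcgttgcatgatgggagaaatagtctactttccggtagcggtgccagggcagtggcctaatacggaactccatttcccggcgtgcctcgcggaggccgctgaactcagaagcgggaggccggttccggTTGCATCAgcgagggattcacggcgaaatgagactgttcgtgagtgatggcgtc
In ASNS the site lies 68 to 61 bases before the start, and in CARS1 and MARS1 it overlaps the start and reads on the opposite strand. The site was found in 7 of 19 promoters (36.8%) of the synthesis and tRNA charging list, 5 of 20 (25%) of the transporter list and 6 of 32 (18.8%) of the ATF4 list, against 3.62% of all 35116 promoters in the table. These shares count every measured list member with a promoter, whether or not it rose. A match of letters is a description and shows no binding. The FOXO site of insulin-repressed genes, searched as CAAAACA on both strands, was in 1 of 24 promoters of the insulin and FOXO list (4.17%), against 4.92% of all promoters. IGFBP1 has no sequence in the table.

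The tRNA synthetases charge tRNAs with their amino acids. SARS1, for serine, was at 9.49 and 9.45 at 36 h, against 8.31 and 8.45 at 8 h (1.09 ± 0.17, adjusted p = 0.000102). WARS1, for tryptophan, was at 8.25 and 8.05 at 36 h, against 6.80 and 7.21 at 8 h (1.14 ± 0.22, adjusted p = 0.00217). CARS1 for cysteine (0.91 ± 0.17, adjusted p = 0.00173), MARS1 for methionine (0.84 ± 0.17, adjusted p = 0.00301) and GARS1 for glycine (0.85 ± 0.23, adjusted p = 0.0421) rose by similar amounts. Of the folate and serine enzymes, MTHFD2 rose by 0.90 ± 0.23 (adjusted p = 0.0312), PSAT1 by 0.80 ± 0.18 (adjusted p = 0.00876) and SHMT2 by 0.79 ± 0.18 (adjusted p = 0.00884). In all of these genes both 36 h arrays lay above both 8 h arrays, as in every probe set called higher. Leaving out 1 HepG2 array left 1 to 4 of the 8 calls, fewest without the first 8 h array, and leaving out the 3 outlying arrays gave 12.

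Further members of these lists rose. CTH, which makes cysteine from cystathionine, was at 6.88 and 6.82 at 36 h, against 5.28 and 5.62 at 8 h (1.40 ± 0.31, adjusted p = 0.00876). SLC7A11, the cystine importer, was at 7.92 and 7.74 at 36 h, against 6.36 and 6.76 at 8 h (1.27 ± 0.29, adjusted p = 0.0112). Its partner chain SLC3A2 rose by 0.68 ± 0.16 (adjusted p = 0.0152), the glutamine carrier SLC1A5 by 0.79 ± 0.16 (adjusted p = 0.00381), the cationic amino acid carrier SLC7A2 by 0.93 ± 0.25 (adjusted p = 0.0446), the neutral amino acid carrier SLC43A1 by 0.73 ± 0.15 (adjusted p = 0.00301) and the glycine carrier SLC6A9 by 0.65 ± 0.17 (adjusted p = 0.0354). A second, dimmer probe set of SLC1A5 differed by 0.22 and did not pass (adjusted p = 0.917). The ATF4 list also gave KLHL24 (0.97 ± 0.20), the hepatic activin subunit gene INHBE (0.86 ± 0.20) and the lipoprotein receptor VLDLR (0.80 ± 0.17). With 1 HepG2 array left out, 2 to 5 of the 7 ATF4 calls and 0 to 2 of the 5 transporter calls were made (0 without the first array of either time), and 8 and 6 without the 3 outlying arrays.

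Of 20 measured ER chaperone and unfolded protein genes 7 rose and 0 fell, where 0.761% of all probe sets rose and 0.894% fell. All 20 had a higher mean at 36 h, against 45% of all probe sets, and the median was 0.61. HYOU1, a chaperone of the ER lumen, was at 9.46 and 9.41 at 36 h, against 8.22 and 8.43 at 8 h (1.11 ± 0.17, adjusted p = 7.14e-05). HERPUD1, a membrane protein of ER-associated degradation, was at 9.77 and 9.76 at 36 h, against 8.58 and 8.62 at 8 h (1.16 ± 0.19, adjusted p = 0.000197). The cochaperones DNAJC3 (1.18 ± 0.30, adjusted p = 0.0318) and DNAJB9 (1.03 ± 0.22, adjusted p = 0.00479), the disulphide isomerase PDIA4 (0.74 ± 0.15, adjusted p = 0.00253) and HSP90B1, the HSP90 of the ER (0.82 ± 0.18, adjusted p = 0.00867), rose as well. HSPA5, the main ER chaperone also called BiP, stood at 11.35 and 11.32 at 36 h, against 10.60 and 10.68 at 8 h (0.69 ± 0.18, adjusted p = 0.0385), a high level at both times. With any 1 HepG2 array left out 3 of the 7 were called, and 11 without the 3 outlying arrays.

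The starts of HSPA5 and HSP90B1 are shown because both hold the ER stress response element, CCAAT and CCACG with 9 bases of any kind between them, searched on both strands and given in capitals. HSPA5 is at chr9:125241294-125241593 (minus strand) and HSP90B1 at chr12:103930160-103930459 (plus strand), in the same window and build as above.
HSPA5: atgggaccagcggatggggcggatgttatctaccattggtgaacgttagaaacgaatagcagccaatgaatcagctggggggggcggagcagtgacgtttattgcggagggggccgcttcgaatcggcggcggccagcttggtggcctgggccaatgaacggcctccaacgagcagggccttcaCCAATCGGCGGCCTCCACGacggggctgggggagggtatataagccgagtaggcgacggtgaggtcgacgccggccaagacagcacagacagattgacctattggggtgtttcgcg
HSP90B1: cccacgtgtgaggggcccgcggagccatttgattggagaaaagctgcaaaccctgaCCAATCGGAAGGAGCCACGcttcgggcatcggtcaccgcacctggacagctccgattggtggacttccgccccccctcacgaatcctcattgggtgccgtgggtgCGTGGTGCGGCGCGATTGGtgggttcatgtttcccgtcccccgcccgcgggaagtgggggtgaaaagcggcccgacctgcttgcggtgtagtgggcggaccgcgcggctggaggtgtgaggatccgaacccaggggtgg
HSPA5 has 1 copy, 66 to 48 bases before the start, and HSP90B1 has 2, one on each strand. In this list 10 of 26 promoters (38.5%), of 8 genes, hold the element, against 0.0769% of all promoters in the table. The share counts every measured list member with a promoter, whether or not it rose, so it does not bear on the change.

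Besides IGFBP1, secreted proteins of the liver were among the rises. C5, the fifth complement component, was at 9.0 and 9.04 at 36 h, against 6.89 and 7.11 at 8 h (2.02 ± 0.25, 4.05-fold, adjusted p = 5.22e-06). ITIH3, a heavy chain of inter-alpha-trypsin inhibitor, was at 8.97 and 8.82 at 36 h, against 7.32 and 7.43 at 8 h (1.52 ± 0.20, adjusted p = 9.06e-06). SERPINA3, the acute-phase inhibitor alpha-1-antichymotrypsin, was at 11.86 and 11.84 at 36 h, against 10.48 and 10.55 at 8 h (1.33 ± 0.23, adjusted p = 0.00049). In these 3 genes the 2 times were clearly separate, and each call held whichever HepG2 array was left out.

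The acute-phase and complement list had 8 of 26 members up and 0 down, with a median of 0.16. Besides C5 and SERPINA3 it held ORM1 and ORM2, the orosomucoids (1.49 ± 0.31 and 1.39 ± 0.35, adjusted p = 0.00479 and 0.0281), the haemoglobin scavenger HP (1.38 ± 0.33, adjusted p = 0.0166), the fibrinogen-like hepatokine FGL1 (1.29 ± 0.30, adjusted p = 0.0124), the copper carrier CP (1.20 ± 0.26, adjusted p = 0.00549) and complement factor CFB (0.91 ± 0.21, adjusted p = 0.0152). ORM1 and ORM2 are near-identical copies, so their probe sets may share signal. In the other lines ORM1, ORM2 and HP had their highest changes in HL60, at 1.87, 1.61 and 1.25. In 13 of the 26 genes the 2 times overlapped, and in the other 13 both 36 h arrays lay above both 8 h arrays, as they did in 19.9% of all probe sets. Leaving out 1 HepG2 array left 2 to 4 calls, the most without the second 8 h array, and leaving out the 3 outlying arrays gave 9.

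Few of the other hepatocyte genes passed. Of 43 identity factors and plasma proteins, 3 rose and 0 fell (median 0.12): ITIH3, the HDL apolipoprotein APOM (9.66 and 9.75 at 36 h, against 8.47 and 8.68 at 8 h, 1.13 ± 0.22, adjusted p = 0.00245) and the fibrinogen chain FGA (9.95 and 9.76 at 36 h, against 9.17 and 9.02 at 8 h, 0.76 ± 0.18, adjusted p = 0.0124). The other fibrinogen chains did not pass, FGB at 1.04 (adjusted p = 0.0681) and FGG at 0.68 (adjusted p = 0.366). Albumin, ALB, differed by 0.36 (adjusted p = 0.67), alpha-fetoprotein, AFP, by 0.04 (adjusted p = 0.997), APOB by -0.32 (adjusted p = 0.847) and the identity factor CEBPA by -0.45 (adjusted p = 0.639). In the list of bile acid, drug and urea metabolism 2 of 30 rose, the drug exporter ABCB1 (7.52 and 7.75 at 36 h, against 6.51 and 6.56 at 8 h, 1.10 ± 0.17, adjusted p = 0.000186) and its phospholipid-exporting relative ABCB4 (0.81 ± 0.21, adjusted p = 0.0329), with a median of 0.08. CYP7A1, which sets the rate of bile acid synthesis, differed by -0.37 (adjusted p = 0.735). Without the 3 outlying arrays, 8 of the 43 rose, and without 1 HepG2 array 1 or 2.

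Other genes were among the 15 largest rises. ARG2, the mitochondrial arginase, was at 7.82 and 7.86 at 36 h, against 6.09 and 6.40 at 8 h (1.59 ± 0.23, adjusted p = 4.7e-05). The protease inhibitor SERPINE2 (1.59 ± 0.27), the matrix protein MATN3 (1.56 ± 0.25), the chemokine CXCL16 (1.46 ± 0.26) and ENPP1, the ectoenzyme that makes pyrophosphate (1.43 ± 0.27), each had an adjusted p of 0.00184 or less. GK3, a retrocopy of glycerol kinase (1.52 ± 0.27), and FAM86B2-DT, a divergent transcript of a multicopy family (1.63 ± 0.33), may share signal with their copies. MOSPD1 rose by 1.45 ± 0.36 (adjusted p = 0.0257). The small RNAs MIR10B (4.40 and 4.63 at 36 h, against 2.65 and 3.05 at 8 h) and SNORD115-41 (3.83 and 4.33 at 36 h, against 3.14 and 2.01 at 8 h) also passed, at levels well below the array median.

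Nutrient and stress lists outside the ATF4 and ER groups moved in a few members each. Of 23 genes of nutrient sensing, autophagy and lysosome 3 rose: DEPP1, a FOXO-induced autophagy regulator (8.67 and 8.33 at 36 h, against 7.24 and 6.90 at 8 h, 1.43 ± 0.18, adjusted p = 7.59e-06), the lysosomal protease CTSB (0.99 ± 0.18, adjusted p = 0.0009) and the autophagy protein WIPI1 (0.81 ± 0.21, adjusted p = 0.0354), with a list median of 0.07. Of 23 oxidative stress genes and metallothioneins 2 rose, the mitochondrial superoxide dismutase SOD2 (1.08 ± 0.26, adjusted p = 0.0187) and the glutathione enzyme GCLC (0.81 ± 0.22, adjusted p = 0.0497), and the count was 0 with any 1 HepG2 array left out. Of 31 hypoxia and glycolysis genes 1 rose, NDRG1, a stress-responsive gene (0.95 ± 0.16, adjusted p = 0.000391), and the median was -0.08. In these 3 lists 0 genes fell. Without the 3 outlying arrays the nutrient list gave 5 up and the hypoxia list 3 up and 1 down.

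Genes of DNA replication were lower throughout. All 37 measured members had both 36 h arrays below both 8 h arrays, against 25.7% of all probe sets, 23 fell and 0 rose, and the median was -0.84. MCM4, a subunit of the replicative helicase, was at 6.50 and 6.52 at 36 h, against 7.73 and 8.01 at 8 h (-1.36 ± 0.19, adjusted p = 3.61e-05). GINS1, of the helicase's partner complex, fell by 1.25 ± 0.25 on the log2 scale (adjusted p = 0.00299), RRM1, the large subunit of ribonucleotide reductase, by 1.17 ± 0.23 (adjusted p = 0.00258), the chromatin remodeller HELLS by 1.14 ± 0.30 (adjusted p = 0.0346), the clamp loader subunit RFC3 by 1.11 ± 0.22 (adjusted p = 0.00221) and the helicase subunit MCM3 by 1.09 ± 0.18 (adjusted p = 0.000404). The other helicase subunits fell too, by 1.05 (MCM7), 0.99 (MCM6), 0.97 (MCM2) and 0.85 (MCM5), and the sliding clamp PCNA fell by 0.89 ± 0.21 (adjusted p = 0.0125). Leaving out 1 HepG2 array gave 7 to 18 falls, fewest without the second 36 h array, and leaving out the 3 outlying arrays gave 31.

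Mitotic genes showed the same order of change. All 39 measured members had both 36 h arrays below both 8 h arrays, against 25.7% of all probe sets. Of the 39, 23 fell and 0 rose, where 0.894% of all probe sets fell and 0.761% rose, and the median was -1.0. DLGAP5, a spindle protein, was at 5.31 and 5.01 at 36 h, against 6.57 and 6.81 at 8 h (-1.53 ± 0.30, adjusted p = 0.00258). TOP2A, the topoisomerase that untangles sister chromatids, was at 7.01 and 6.94 at 36 h, against 8.37 and 8.44 at 8 h (-1.43 ± 0.28, adjusted p = 0.002). PLK1, a mitotic kinase, was at 7.72 and 7.66 at 36 h, against 8.74 and 9.06 at 8 h (-1.21 ± 0.17, adjusted p = 3.48e-05). MKI67, which codes for the proliferation antigen Ki-67, was at 5.29 and 5.03 at 36 h, against 6.11 and 6.38 at 8 h (-1.09 ± 0.25, 0.47 of its 8 h level, adjusted p = 0.0108), and its call was lost without the second array of either time (adjusted p up to 0.236). KIF20A (-1.39 ± 0.29), CDK1 (-1.28 ± 0.31) and TPX2 (-1.25 ± 0.27), a motor, the mitotic cyclin-dependent kinase and a spindle assembly factor, fell alike, as did the cyclins CCNA2 (-1.17 ± 0.23), CCNB1 (-1.07 ± 0.26) and CCNB2 (-1.04 ± 0.26). Leaving out 1 HepG2 array gave 6 to 16 falls, fewest without the second 8 h array, and leaving out the 3 outlying arrays gave 31. The list median stayed between -0.89 and -1.12 with 1 HepG2 array left out.

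The starts of 4 of these genes are shown for the sites their class is known for. In PLK1, CCNB2 and MKI67 the capitals mark the cell cycle homology region, spelled TTTGAA, and in MCM6 they mark the E2F site TTTGGCGC, each searched on both strands. The windows are PLK1 at chr16:23678639-23678938 (plus strand), CCNB2 at chr15:59104896-59105195 (plus strand), MKI67 at chr10:128126374-128126673 (minus strand) and MCM6 at chr2:135876394-135876693 (minus strand), cut and written as above.
PLK1: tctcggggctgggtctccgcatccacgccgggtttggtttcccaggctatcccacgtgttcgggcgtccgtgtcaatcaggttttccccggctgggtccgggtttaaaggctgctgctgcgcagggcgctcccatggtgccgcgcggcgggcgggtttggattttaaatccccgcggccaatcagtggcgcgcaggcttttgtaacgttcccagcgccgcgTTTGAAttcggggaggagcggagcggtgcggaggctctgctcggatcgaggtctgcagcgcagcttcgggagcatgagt
CCNB2: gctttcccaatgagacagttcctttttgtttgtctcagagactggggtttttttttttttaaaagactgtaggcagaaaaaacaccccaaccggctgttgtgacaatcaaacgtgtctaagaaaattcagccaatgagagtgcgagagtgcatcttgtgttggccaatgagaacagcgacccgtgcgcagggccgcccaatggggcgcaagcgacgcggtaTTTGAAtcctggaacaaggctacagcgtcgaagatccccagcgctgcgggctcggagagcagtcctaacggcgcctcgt
MKI67: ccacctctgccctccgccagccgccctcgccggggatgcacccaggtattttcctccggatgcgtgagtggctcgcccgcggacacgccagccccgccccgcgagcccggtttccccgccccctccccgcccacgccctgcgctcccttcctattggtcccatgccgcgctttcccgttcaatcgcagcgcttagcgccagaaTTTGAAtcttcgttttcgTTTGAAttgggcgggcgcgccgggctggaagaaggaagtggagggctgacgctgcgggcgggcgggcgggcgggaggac
MCM6: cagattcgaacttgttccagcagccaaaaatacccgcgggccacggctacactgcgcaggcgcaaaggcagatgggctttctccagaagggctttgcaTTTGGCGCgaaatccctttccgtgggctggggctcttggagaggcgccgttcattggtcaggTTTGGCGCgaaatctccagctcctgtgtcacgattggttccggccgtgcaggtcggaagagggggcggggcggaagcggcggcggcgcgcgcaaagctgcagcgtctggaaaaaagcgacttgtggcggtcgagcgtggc
PLK1, CCNB2 and MKI67 each have TTTGAA 29 to 24 bases before the start, and MKI67 has a second copy 47 to 42 bases before it. MCM6 has 2 E2F sites, 152 to 145 and 90 to 83 bases before the start. TTTGAA occurs in 27 of 39 promoters of the mitosis list (69.2%), against 2 of 47 of the replication list (4.26%) and 15.2% of all promoters. TTTGGCGC occurs in 9 of 47 promoters of the replication list (19.1%), against 0.652% of all promoters, and its variant TTTCCCGC in 11 of 47 (23.4%), against 1.63% of all promoters. None of the spellings searched lies within another. Here too the shares count every measured list member with a promoter, whether or not it fell, so they do not bear on the change.

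Histone genes included the largest falls of the array. Of 27 measured replication-dependent histones 10 fell and 0 rose, with a median of -0.62. H2BC14 was at 8.06 and 7.70 at 36 h, against 9.79 and 9.85 at 8 h (-1.94 ± 0.23, 0.26 of its 8 h level, adjusted p = 3.81e-06). H2AC4 was at 6.68 and 6.19 at 36 h, against 8.28 and 8.12 at 8 h (-1.77 ± 0.23, adjusted p = 9.37e-06). H3C2 fell by 1.47 ± 0.22 (adjusted p = 4.73e-05), the linker histone H1-5 by 1.24 ± 0.18 (adjusted p = 5.08e-05) and H4C5 by 0.99 ± 0.17 (adjusted p = 0.000426). Histone genes are near-identical copies, so single members are uncertain. H4C14 and H4C15, outside the list, hold the same values on every array (-1.40 ± 0.20, adjusted p = 3.46e-05). Leaving out 1 HepG2 array gave 5 to 8 falls, fewest without the second 36 h array. The remaining genes of the 15 largest falls were linked to proliferation. They were SHCBP1 (-1.50 ± 0.26), CENPI (-1.38 ± 0.27), KNSTRN (-1.34 ± 0.23), ARHGAP11A (-1.34 ± 0.35), CIP2A (-1.32 ± 0.31) and MELK (-1.31 ± 0.28).

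**Figure D2:**
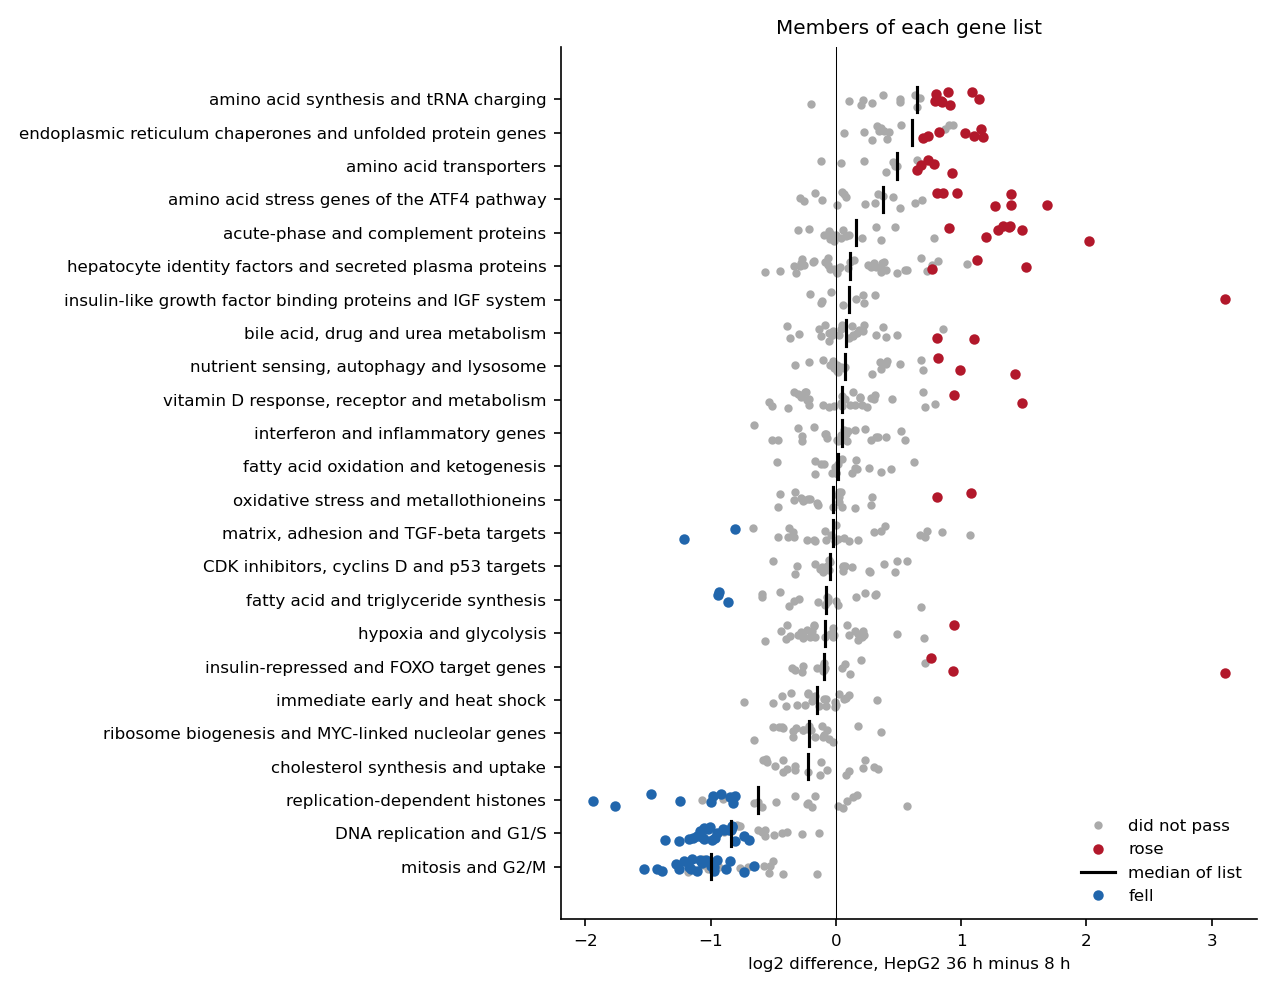
Log2 difference between 36 h and 8 h in HepG2 for the measured members of 24 gene lists, 1 point a gene (red rose, blue fell, grey did not pass), with a black bar at the list median. The lists are ordered by median, with amino acid synthesis and tRNA charging at the top (0.65) and DNA replication (-0.84) and mitosis (-1.0) at the bottom.

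No cell cycle inhibitor passed. Of 23 CDK inhibitors, D cyclins and p53 targets 0 rose and 0 fell in limma's test (2 higher and 1 lower at an unadjusted p under 0.05), and the median was -0.05. Over all 19460 probe sets, 1794 had an unadjusted p under 0.05 in that test. The largest differences were in the death receptors TNFRSF10B (0.57 ± 0.22, adjusted p = 0.307) and FAS (-0.50 ± 0.29, adjusted p = 0.678) and in cyclin G1, CCNG1 (0.49 ± 0.34, adjusted p = 0.787). CDKN1A, the inhibitor p21, differed by 0.07 (adjusted p = 0.985). ID1 and ID3, inhibitors of differentiation that TGF-beta family signals regulate, were the 2 of 28 matrix and TGF-beta genes to pass, and both fell: ID3 read 5.79 and 5.36 at 36 h, against 6.73 and 6.86 at 8 h (-1.21 ± 0.21, adjusted p = 0.00045), and ID1 read 6.58 and 6.59 at 36 h, against 7.14 and 7.65 at 8 h (-0.81 ± 0.19, adjusted p = 0.0144). Without the second 36 h array 0 of these 28 passed, and without the 3 outlying arrays 4 rose and 3 fell.

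Lipid synthesis was lower at 3 enzymes. Of 22 genes of fatty acid and triglyceride synthesis 3 fell and 0 rose, with a median of -0.08. FASN, fatty acid synthase, was at 7.72 and 7.56 at 36 h, against 8.46 and 8.71 at 8 h (-0.94 ± 0.20, adjusted p = 0.00492). DGAT1, which makes triglycerides, was at 7.48 and 7.28 at 36 h, against 8.27 and 8.35 at 8 h (-0.93 ± 0.16, adjusted p = 0.000426). FADS2, a fatty acid desaturase, was at 7.32 and 7.42 at 36 h, against 8.19 and 8.26 at 8 h (-0.86 ± 0.17, adjusted p = 0.00302). Without the second 8 h array 1 of them was called (FASN had an adjusted p of up to 0.164), while without the 3 outlying arrays 5 fell and 1 rose.

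Cholesterol synthesis and fatty acid oxidation had no member that passed. Of 19 cholesterol genes 0 rose and 0 fell in limma's test (0 higher and 6 lower at an unadjusted p under 0.05), with a median of -0.22, and the largest differences were in the synthesis enzymes MVD (-0.59 ± 0.19, adjusted p = 0.149), HMGCS1 (-0.56 ± 0.29, adjusted p = 0.58) and EBP (-0.55 ± 0.19, adjusted p = 0.188). Of 19 oxidation and ketogenesis genes 0 passed (2 higher and 1 lower before adjustment), and CPT1A, the carnitine transferase that admits fatty acids to mitochondria, differed most (0.62 ± 0.19, adjusted p = 0.09). Ribosome biogenesis genes had a median of -0.22 with 20 of 22 lower, against 55% of all probe sets, and 0 passing (0 higher and 4 lower before adjustment). The immediate early and heat shock genes had a median of -0.15 with 0 of 24 passing (0 higher and 3 lower before adjustment). Interferon and inflammatory genes had a median of 0.05 with 0 of 26 passing (2 higher and 3 lower before adjustment), where the chemokine CCL20 differed most (-0.65 ± 0.23, adjusted p = 0.212). Leaving out the 3 outlying arrays called 3 cholesterol genes as lower. The list counts before adjustment stand beside 1794 of 19460 over all probe sets.

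Neither CYP24A1 nor VDR, the 2 genes closest to calcitriol itself, passed between these times. CYP24A1 was at 6.98 and 7.07 at 36 h, against 7.37 and 7.70 at 8 h, a difference that did not pass (-0.51 ± 0.33, adjusted p = 0.768). VDR was at 4.89 and 5.01 at 36 h, against 5.35 and 5.15 at 8 h (-0.30 ± 0.20, adjusted p = 0.773). Of 35 measured vitamin D genes 2 rose and 0 fell, with a median of 0.05: ORM1 and the surface peptidase DPP4 (9.17 and 9.04 at 36 h, against 8.02 and 8.31 at 8 h, 0.94 ± 0.26, adjusted p = 0.0496). With 1 HepG2 array left out 0 or 1 passed, and 4 rose without the 3 outlying arrays. The receptor partner RXRA differed by 0.05 (adjusted p = 0.986), and CYP2R1, which makes 25-hydroxyvitamin D, by -0.54 (adjusted p = 0.309).

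The last comparison asked whether HepG2 changed between 8 h and 36 h as the other lines did. The HepG2 difference minus the mean difference of the other 8 lines was higher for 69 probe sets (0.355% of 19460) and lower for 101 (0.519%). Of the 322 called in HepG2, 149 also passed this test, 66 higher and 83 lower. These counts were 19 to 41 higher and 19 to 44 lower when 1 HepG2 array was left out, and became 211 and 234 without the 3 outlying arrays. IGFBP1 differed most, by 3.23 ± 0.21 (adjusted p = 5.47e-13). Its arrays in the other lines lay between 5.58 and 6.52, and its change there ran between -0.30 and 0.15. C5 (1.90 ± 0.26, adjusted p = 7.07e-05), ITIH3 (1.61 ± 0.21, adjusted p = 2.17e-05) and ASNS (1.52 ± 0.19, adjusted p = 1.18e-05) also differed. A fit of only HepG2, AG09319 and GM12878, the 3 lines whose titles share one style, had fewer arrays. It gave 1 higher and 4 lower, and C5 and ASNS did not pass there. In the other lines ASNS had its highest changes in K562 (0.91) and AG09319 (0.85), and C5 in AG09309 (0.69). Both of these ASNS changes include an outlying array. It read 8.89 against 8.24 for its partner in K562 at 36 h, and 6.37 against 6.86 in AG09319 at 8 h. C5 read 3.37 to 4.42 in AG09309, below the array median at both times.

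CYP24A1 had the largest difference in the opposite direction. It differed by -2.24 ± 0.36 (adjusted p = 0.000391), since its mean was higher at 36 h in all of the other 8 lines, by 0.71 to 3.07, and by 1.72 on average. In the 4 lymphoblastoid lines its arrays read 3.13 to 3.84 at 8 h, which cannot be told from background, and 4.09 to 4.96 at 36 h. K562 read 3.67 in both 8 h arrays, and at 36 h 7.15 in its outlying array and 5.03 in the other. AG09319 read 5.11 in its outlying 8 h array and 5.68 in the other. At 8 h it was at 7.37 and 7.70 in HepG2, where the 8 h arrays of the other lines read between 3.13 and 7.82. Its 0 h levels in HepG2, which the comparison does not use, were 6.78 and 6.14, the latter in the outlying array. Of the lipid genes, 4 of 22 in the fatty acid list and 2 of 19 in the cholesterol list were lower than the mean of the other lines. FADS2 differed by -1.23 ± 0.18 (adjusted p = 0.000176), FASN by -1.09 ± 0.21 (adjusted p = 0.00364), DGAT1 by -0.93 ± 0.17 (adjusted p = 0.00158) and HMGCS1 by -1.27 ± 0.30 (adjusted p = 0.0269). CYP24A1 and FADS2 kept this call whichever HepG2 array was left out, and FASN, DGAT1 and HMGCS1 lost it in at least 1 such fit. INSIG1, which holds back cholesterol synthesis, differed by -1.16 (adjusted p = 0.00307), and the cholesterol list as a whole had a median change of -0.22 in HepG2, against -0.05 to 0.64 in the other lines. Without the outlying arrays the highest of these, K562, was at 0.30, AG09319 was at 0.19, and the highest line was GM12878 at 0.37.

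**Figure D3:**
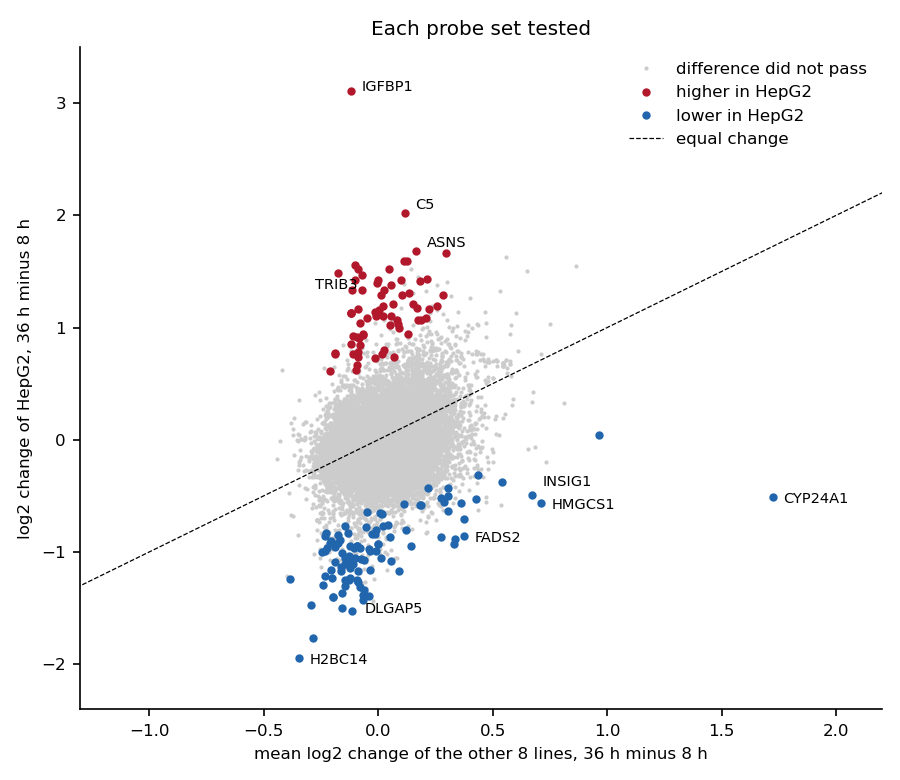
Log2 change from 8 h to 36 h of each probe set in HepG2 (vertical axis) against its mean change in the other 8 lines (horizontal axis), with probe sets whose difference passed in red (69 higher in HepG2) and blue (101 lower). The dashed line marks equal change, IGFBP1 lies at 3.11 with -0.12 in the other lines, and CYP24A1 lies at -0.51 with 1.72.

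Set by list, the medians of the ER and amino acid transporter groups were well below HepG2 in each of the other lines, with and without the outlying arrays. Those of the other groups given here differed by line. The transporter list's median was 0.49 in HepG2, against -0.17 to 0.20 in the other lines, and 1 of its 13 members passed the difference. The ER list's median was 0.61 in HepG2, against -0.14 to 0.29 in the other lines, and 4 of its 20 members passed the difference. The ATF4 list's median was 0.37 in HepG2, against -0.07 to 0.23 in the other lines, with 3 of 23 passing, but without its outlying array AG09319 was at 0.36, level with HepG2. For synthesis and tRNA charging it was 0.65 in HepG2, against -0.12 to 0.80, the highest being AG09319, where it was 0.40 without its outlying array, and 1 of 19 passed. For mitosis the median was -1.0 in HepG2, against -0.60 in AG09309, -0.56 in AG09319 and -0.18 to 0.31 in the 6 lines that grow in suspension. For replication it was -0.84 in HepG2, against -0.40 in AG09309, -0.86 in AG09319 and -0.09 to 0.14 in those 6. Without its outlying 8 h array, AG09319 had medians of -1.21 for mitosis and -1.24 for replication, both lower than in HepG2. In each of these lists 13 members passed the difference from the mean of the other lines.

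**Figure D4:**
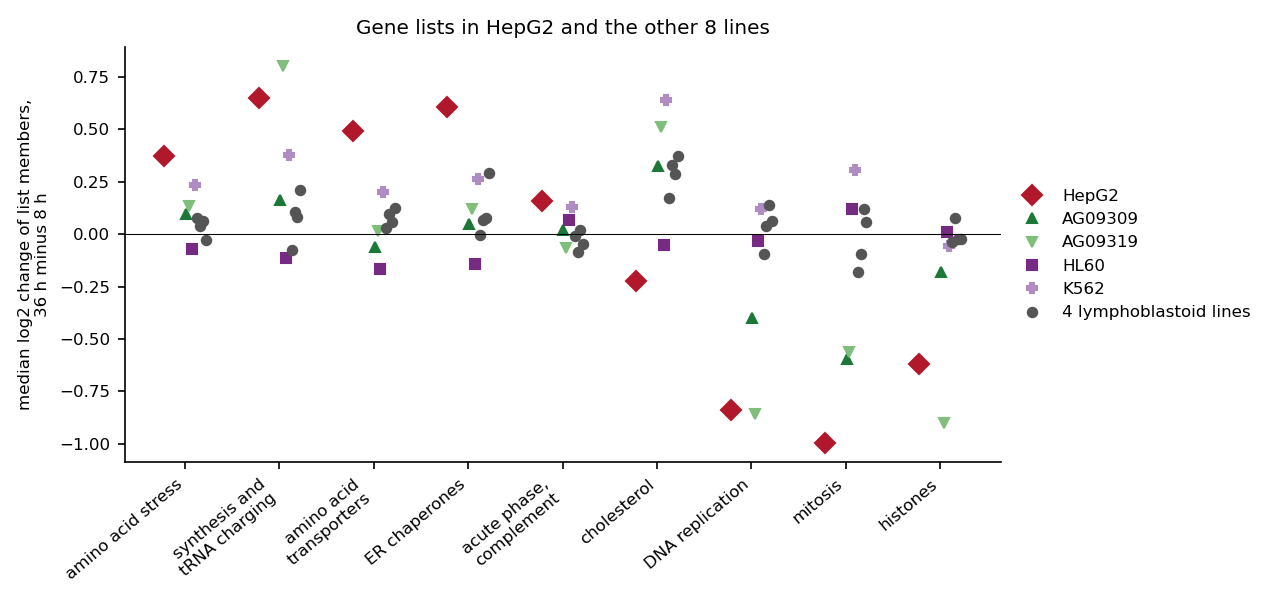
Median log2 change from 8 h to 36 h of the members of 9 gene lists in HepG2 (red diamonds, left in each column) and in each of the other 8 lines. All arrays are included. HepG2 lies above every other line for ER chaperones (0.61) and amino acid transporters (0.49), and close to AG09319 for DNA replication (-0.84 and -0.86). It also lies above the other lines for amino acid stress (0.37) and below them for mitosis (-1.0). Without its outlying array AG09319 would be at 0.36 for amino acid stress and -1.21 for mitosis.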

How the data were processed

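Expression was measured in 54 arrays, 2 for each of 9 lines at 0, 8 and 36 h. Per the labels' protocols, total RNA was labelled with the Affymetrix WT protocol, and per the submitters' processing notes the values come from Affymetrix Expression Console 1.0 and RMA. The deposited values are log2 expression per probe set, while the sources used here give neither the calcitriol dose nor whether RMA took all arrays at once. Array medians ran from 4.98 to 5.31.

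Of 33297 deposited probe sets, the platform annotation lists 21214. Those with 1 symbol (19460) were tested, and 1754 with several were left out. Gene IDs were found in RefSeq's gene table for 19429 of the tested ones, and 0 symbols changed. A single fit of 27 groups of line and time was made with limma 3.58.1 in R 4.3.3 (27 residual and 8.89 prior degrees of freedom, two-sided, threshold 0.05). It gave HepG2 36 h minus 8 h, and that difference minus the mean of the other 8 lines. No low-value filter was set. A gene on several probe sets is given by the one with the highest mean over the 54 arrays.

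The comparison and the 27 gene lists (678 entries, 629 measured) were chosen with earlier results of these data known, so their counts are descriptions. Genes were named by rule: IGFBP1, ASNS, MKI67, CYP24A1 and VDR, the 15 largest rises and falls that passed without overlap, up to 6 passing members of each list (or the 3 largest differences where none passed) and the 10 largest differences from the other lines each way. Further list members, H4C14's shared values, INSIG1 and the promoters shown were chosen after their values were seen. Promoters come from RefSeq (GRCh38.p14), where 87 of the 116 named genes have one.

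Replicate numbers were not treated as pairs, and the labels do not say whether same-numbered arrays share a culture. The deviations of same-numbered HepG2 arrays at 36 h and 8 h correlated at -0.156, a single value that cannot settle it. Alternatives were other scalings, filters and probe set choices, fits without some arrays, other moderation and array weights. The number of arrays limits the precision. Tables and plots used the data.table package (1.17.8), Python 3.11.15, pandas 2.3.3, numpy 2.4.6 and matplotlib 3.10.9.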

Additional observations from a re-analysis of the deposited data

Results flagged for a closer look

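Each gene below is named in the report or by its rule and changed between 8 h and 36 h in HepG2 by another amount than the mean of the other 8 lines, by limma's test of that difference at an adjusted p under 0.05. The value after each gene is the log2 change in HepG2 minus that mean, and it is a difference between changes, not a level. The mean of the other lines joins fibroblast, leukaemia and lymphoblastoid lines, so a difference from it does not mean that every line differed. Some genes lost this call whichever HepG2 array was left out. Among the higher genes they were ENPP1, FGA, DNAJB9, HERPUD1, PDIA4 and SLC43A1. Among the lower genes they were HMGCS1, JUNB, GINS1, RRM1, RFC3, DLGAP5, TOP2A, KIF20A, CENPI, MELK and TPX2. Others lost it in part of these fits.

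Secreted and liver-linked genes were higher: IGFBP1 (3.23), C5 (1.90), ORM1 (1.66), ITIH3 (1.61), SERPINA3 (1.45), FGL1 (1.28), APOM (1.25) and FGA (0.75). ORM1 lay within the range of the other lines, which ran from -1.19 in AG09309 to 1.87 in HL60, against 1.49 in HepG2. The secreted or surface proteins MATN3 (1.65), CXCL16 (1.54), BPIFB2 (1.53), SERPINE2 (1.46), ENPP1 (1.22) and ABCB1 (1.08) were higher too. ENPP1 also lay within the range of the other lines, with a change of 1.66 in AG09319, against 1.43 in HepG2. Amino acid and ER stress genes with higher changes were ASNS (1.52), TRIB3 (1.40), SARS1 (0.88), SLC43A1 (0.74), INHBE (0.98), HYOU1 (1.12), DNAJB9 (0.95), HERPUD1 (0.94) and PDIA4 (0.67). The other higher genes were ARG2 (1.48), GK3 (1.47), MIR10B (1.37), DEPP1 (1.33), PPARGC1A (1.0), CTSB (0.90) and NDRG1 (0.81).

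CYP24A1 had the lowest value (-2.24), and its mean was higher at 36 h in each of the other 8 lines. In the 4 lymphoblastoid lines its 8 h arrays lay between 3.13 and 3.84, well below the array median. Lipid genes with lower changes were HMGCS1 (-1.27), FADS2 (-1.23), FASN (-1.09) and DGAT1 (-0.93), and the immediate early gene JUNB was at -0.65. Replication and histone genes with lower changes were H2BC14 (-1.60), H2AC4 (-1.48), H4C14 (-1.21), H4C15 (-1.21), MCM4 (-1.20), H3C2 (-1.18), GINS1 (-1.12), RRM1 (-1.08), RFC3 (-1.0), H4C5 (-0.96), MCM3 (-0.90) and H1-5 (-0.85). Mitotic and other proliferation genes with lower changes were DLGAP5 (-1.41), TOP2A (-1.36), KIF20A (-1.35), SHCBP1 (-1.34), CENPI (-1.32), KNSTRN (-1.28), MELK (-1.24), TPX2 (-1.16) and PLK1 (-0.98). The fibroblast lines AG09309 and AG09319 also had lower list medians for replication and mitosis at 36 h, so these differences stand against the mean of the 8 lines and not against each of them.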

How the results depend on the processing

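Among the genes named by rule, no called gene changed direction under any alternative run. The direction of other called genes was not followed there. CD38, which did not pass, was at -0.15 without the first 36 h array and 0.80 without the second, against 0.33 with both. List medians near 0 crossed it: over the alternatives they ran from -0.03 to 0.22 for the IGF system, from -0.0014 to 0.47 for acute-phase genes, from -0.0013 to 0.17 for bile acid, drug and urea metabolism, from -0.02 to 0.09 for vitamin D genes, from -0.05 to 0.10 for interferon genes and from -0.06 to 0.02 for CDK inhibitors. Counts for HepG2 36 h against 8 h (148 higher, 174 lower) and for its difference from the other lines (69 higher, 101 lower), with list members called (111), moved as follows. Quantile normalization gave 237 and 417, then 121 and 261. Without the 3 outlying arrays they were 384 and 367, 211 and 234, and 171 list members, while array quality weights gave 508 and 501, 185 and 419, and 186. A fit of the 3 lines whose titles share one style, HepG2 among them, gave 32 and 35, 1 and 4, and 30. The 6 HepG2 arrays alone, which include the outlying 0 h array, gave 9 and 6, with 8 list members, and the 4 alone gave 262 and 234. Leaving out 1 HepG2 array gave 54 to 67 and 46 to 110, 19 to 41 and 19 to 44, and 44 to 60. A mean over all arrays above 5 gave 45 higher than the other lines, and the 4 other lines that are not lymphoblastoid gave 65 lower. Genes without a value under a filter were left out there. The 6 HepG2 arrays and the 4 alone could give no difference from the other lines. For single genes, 654 of 3977 values from alternatives lost the call, 25 gained it and 1 (CD38) reversed.

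The pairing check was mixed by line. Deviations of same-numbered arrays at 36 h and 8 h correlated at -0.347 in AG09319 and up to 0.356 in K562, so it cannot settle whether a block applies. The replicate block gave 159 higher and 197 lower. With the block on 8 h and 36 h arrays only it gave 82 and 93, 41 and 30, and 73 list members. The crossed pairing, chosen after the data were seen, gave 88 and 99, then 41 and 37.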

Other observations

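Further genes passed in HepG2 outside the 27 lists, and they are named here after their values were seen, with limma's adjusted p over all probe sets. The tubulin gene TUBB read 10.76 and 10.60 at 36 h, against 11.54 and 11.71 at 8 h (-0.95 ± 0.14, adjusted p = 3.61e-05). TUBB4B fell by 1.13 ± 0.15 (adjusted p = 2.19e-05) and TUBA1B by 0.83 ± 0.17 (adjusted p = 0.00302). The nuclear lamina gene LMNB1 fell by 1.25 ± 0.16 (adjusted p = 9.37e-06), the histone methyltransferase gene EZH2 by 0.96 ± 0.19 (adjusted p = 0.00245) and the nuclear pore gene NUP93 by 0.84 ± 0.18 (adjusted p = 0.0073). The Wnt inhibitor gene DKK1 fell by 1.31 ± 0.24 (adjusted p = 0.00115). ACTB, a gene often used to scale expression between samples, also fell, by 0.66 ± 0.14 (adjusted p = 0.00447). TUBB, TUBB4B, TUBA1B, LMNB1, EZH2, NUP93, DKK1 and ACTB each had a lower change in HepG2 than the mean of the other lines at an adjusted p of 0.0467 or less.

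Genes outside the lists that rose included the following. SLC2A2, the glucose transporter of the liver, rose by 1.16 ± 0.23 (adjusted p = 0.00284), SLC40A1, the iron exporter ferroportin, by 1.14 ± 0.22 (adjusted p = 0.00221), FMO5, a flavin monooxygenase, by 1.21 ± 0.21 (adjusted p = 0.000534) and FST, the activin-binding protein follistatin, by 1.16 ± 0.23 (adjusted p = 0.00245). NT5E, the ectoenzyme that makes adenosine, rose by 1.43 ± 0.26 (adjusted p = 0.000773). The change in HepG2 minus the mean of the other lines was 1.43 for NT5E, 1.25 for SLC2A2, 1.15 for FMO5 and 1.16 for FST, each past the threshold (adjusted p of 0.00848 or less), and 0.68 for SLC40A1, which was not (adjusted p = 0.263). SLC40A1 had a change of 2.67 in AG09319.

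A histone gene outside the list went the other way: H2BC12 rose by 1.41 ± 0.30 (adjusted p = 0.00449), with 5.39 and 5.30 at 36 h, against 3.69 and 4.18 at 8 h. Some listed genes did not pass in HepG2 and still differed from the other lines: STS, steroid sulphatase, differed by 0.04 in HepG2 (adjusted p = 0.992) and its difference from the mean of the other lines was -0.93 (adjusted p = 0.00394). Its change was 1.49 to 1.94 in the 4 lymphoblastoid lines.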
